A study of Gossypium hirsutum with 7 samples.

Results

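Aux2, Aux4, GID1-2 and GID1-4 are hormone response genes of upland cotton (Gossypium hirsutum), whose genome holds A and D copies of most genes. They were followed through every probe set whose only annotated gene carries 1 of these names in RefSeq. The rule found 4 genes read by 7 probe sets, of 520 genes with a single-gene annotation and 23977 probe sets tested. Aux4 was read by 4 probe sets and the other genes by 1 each. RNA was taken from whole ovules on the day their flowers opened (0 days post anthesis), as fibre initials emerge from the epidermis, and each sample had an Affymetrix cotton array of its own. There were 2 arrays of wild type, 2 of plants in which the homeodomain gene GhHD-1 was silenced and 3 of plants over-expressing GhHD-1. Replicates are labelled biological, all plants grew in a glasshouse, and ovules to be compared were gathered on 1 date. The labels name neither the variety, the promoter of either transgene nor the number of lines behind a group. The series asks which genes GhHD-1 may regulate as fibres initiate.

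Auxin is read through Aux/IAA proteins, repressors that bind auxin response factors and are destroyed when auxin joins them to their receptor. Many Aux/IAA genes are themselves switched on by auxin, and the cotton genes numbered Aux belong to this family. Gibberellin is read through GID1, a soluble receptor that binds DELLA repressors such as GAI once it holds the hormone, which leads to their breakdown. In Arabidopsis, GID1 transcripts are lowered by gibberellin itself. Both hormones are long known to promote fibre outgrowth from cotton ovules in culture. Of 7 cotton genes numbered Aux in RefSeq, 4 had a single-gene probe set here, as did 2 of the 4 numbered GID1 and 1 of the 6 named GAI.

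Values are log2 intensities as the authors deposited them. The median of an array was 7.61 to 7.72 and its 5th percentile 3.50 to 3.67, and every value of the 4 genes stood above that percentile. A group difference is a difference of mean log2 levels with its standard error (SE) from limma, fitted to all 7 arrays and adjusted over all 23977 probe sets by the Benjamini-Hochberg method with a threshold of 0.05. In whole ovules, a change in the number of expressing cells and a change in RNA per cell cannot be told apart. Fibre and epidermis markers (12 probe sets of 10 genes) averaged 8.77 to 9.19 on the wild-type arrays, 8.86 to 8.94 on the silenced and 8.79 to 9.29 on the over-expression arrays. These markers were not uniform. Sus1 (13.27 to 13.64), ACT1 (12.36 to 12.8) and a lipid transfer protein probe set (11.94 to 12.42) read highest. E6 read 9.69 to 10.7 and HOX3 9.94 to 10.9. The CelA1 probe sets (6.08 to 7.09 and 3.51 to 4.51) and myb109 (5.6 to 7.18) lay below the array medians. Rac13 lay near the 5th percentile (3.77 to 4.1). Seed storage and late embryogenesis markers (8 probe sets of 7 genes) averaged 5.76 to 6.04 over the 7 arrays but were not uniform. Lea5-D read 10.46 to 12.09, 1 LEGB probe set 9.48 to 9.92 and Lea14-A 6.88 to 8.7, while the others lay between 3.07 and 4.78. The pollen gene G9 read 3.67 to 4.46. No probe set carries the name GhHD-1 in the annotation used, so silencing and over-expression are taken from the labels.

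The wild-type arrays differed from each other more than the silenced arrays did. The median absolute gap between replicates over all tested probe sets was 0.234 log2 units in wild type and 0.116 in the silenced group. Wild-type replicate 2 read 11.88 at the reporter control RPTR-Ghi-U57609-2_s_at, against 5.09 on replicate 1 and 5.91 to 9.84 on the 5 transgenic arrays. The larger differences of the members and of GAI2 from wild type are therefore also given without each wild-type array. A lone wild-type array is then assumed to vary like the other groups.

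None of the 7 probe sets passed the adjusted threshold in any comparison. Between silenced and wild-type ovules 0 of 7 were called, beside 0% of all tested probe sets. In over-expression against wild type the count was again 0 of 7, beside 0.00417% of all. Between over-expression and silenced ovules it was 0 of 7, beside 0.0209%. At an unadjusted p under 0.05 there were 3, 2 and 0 of the 7 member probe sets in these comparisons. Of all 23977 tested there were 3472, 2505 and 2892. The count for silenced ovules includes GhiAffx.1868.1.S1_a_at and GhiAffx.1868.2.A1_at, which read the same gene, Aux4. The number of arrays limits the precision, and the intervals below show which differences the data leave possible.

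**Figure D1:**
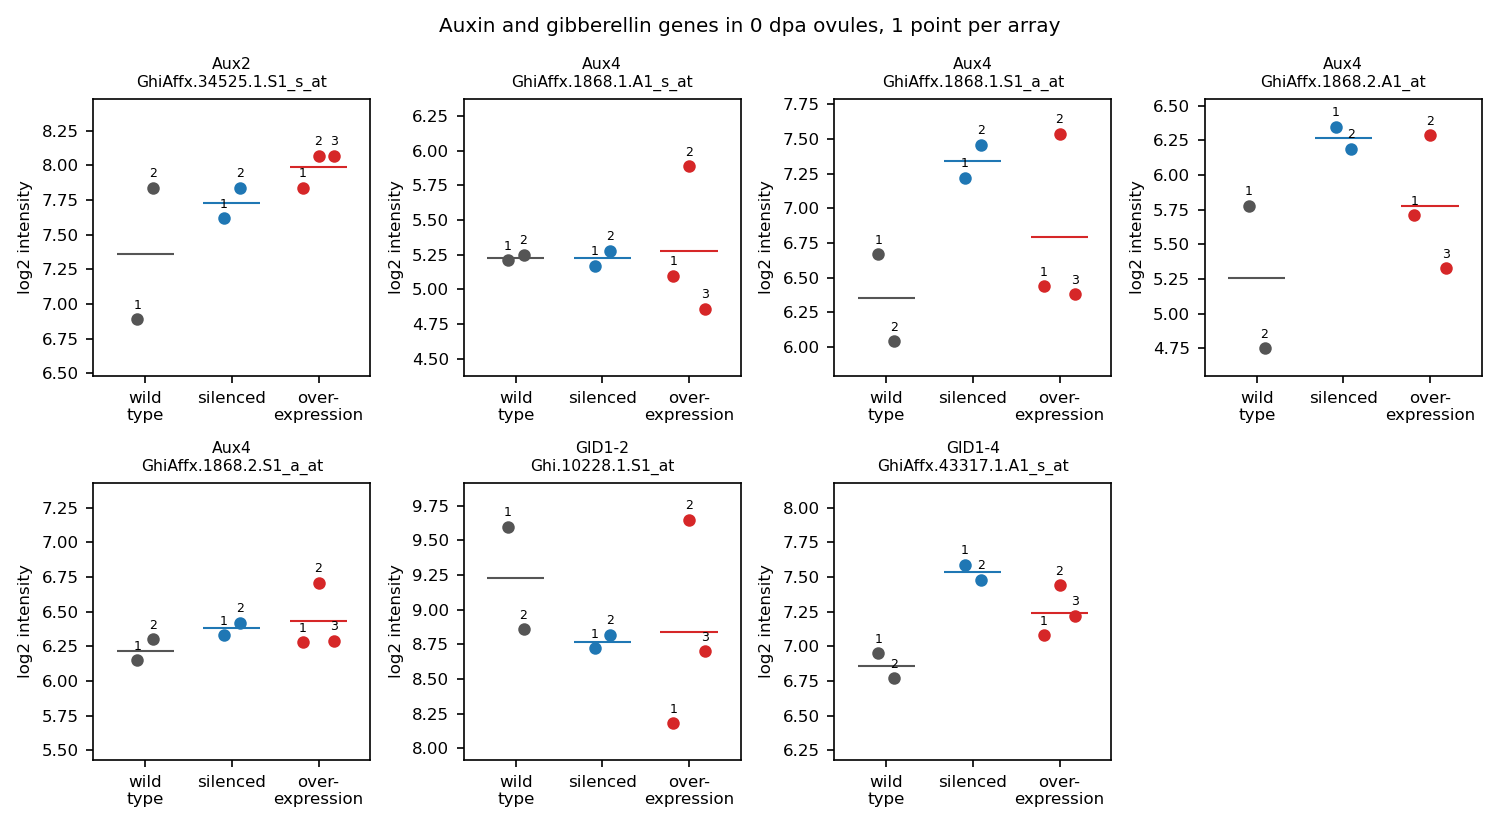
Log2 intensity of each Aux2, Aux4, GID1-2 and GID1-4 probe set on each array, with groups on the horizontal axis, replicate numbers above the points and a bar at the group mean. Every panel spans 2 log2 units. GID1-4 shows 3 groups that do not overlap, Aux2 has a single low array, and over-expression replicate 2 is the highest or joint highest of its group as plotted in every panel.

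GID1-4, a gibberellin receptor gene, was the member whose groups stood clear of each other. Its probe set GhiAffx.43317.1.A1_s_at read 6.95 and 6.77 in wild type, 7.59 and 7.48 in silenced ovules, and 7.08, 7.44 and 7.22 in over-expression. The silenced arrays were highest, the wild-type arrays lowest, and the over-expression arrays lay between them with no overlap. All 3 groups were apart in this way, in any order, at 5.72% of the tested probe sets. Group means were 6.86 ± 0.12 (SD, n = 2), 7.54 ± 0.07 (SD, n = 2) and 7.24 ± 0.18 (SD, n = 3).

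The silenced mean of GID1-4 lay 0.68 above wild type (SE 0.15, 95% interval 0.32 to 1.04), a 1.60-fold higher level. The unadjusted limma p was 0.00295 and the adjusted p 0.175. The difference was 0.77 without wild-type replicate 1 and 0.59 without replicate 2, with limma adjusted p of 0.0912 and 0.191. In over-expression GID1-4 lay 0.39 above wild type (SE 0.14, interval 0.06 to 0.71, adjusted p = 0.455 by limma). Without wild-type replicates 1 and 2 that difference was 0.47 and 0.30. GID1-4 in over-expression lay 0.29 below the silenced mean (difference -0.29, SE 0.14, interval -0.62 to 0.04, adjusted p = 0.468). The comparisons with wild type share the same wild-type arrays.

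GID1-2, another receptor gene of the family, had its widest spread within the over-expression group. Its probe set Ghi.10228.1.S1_at read 9.60 and 8.86 in wild type, 8.72 and 8.82 in silenced ovules, and 8.18, 9.65 and 8.70 in over-expression. Wild-type replicate 1 and over-expression replicate 2 were high, and the over-expression arrays alone spanned the whole range of the series. The SD of the over-expression arrays was 0.75, a spread reached by 1.8% of all tested probe sets.

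The silenced arrays of GID1-2 lay below both wild-type arrays, by 0.46 in the means (difference -0.46, SE 0.46, interval -1.55 to 0.62, adjusted p = 0.656 by limma). Without wild-type replicate 1 the difference was -0.09, and without replicate 2 it was -0.84. The over-expression mean differed from wild type by -0.39 (SE 0.42, interval -1.38 to 0.60, adjusted p = 0.725) and from silenced ovules by 0.08 (SE 0.42, interval -0.91 to 1.07, adjusted p = 0.967). The difference of GID1-2 between over-expression and wild type was -0.01 without wild-type replicate 1 and -0.76 without replicate 2, and -0.05 and -0.79 without over-expression replicates 1 and 2. Between over-expression and silenced ovules it was 0.41 and -0.33 without over-expression replicates 1 and 2, so 1 array decided its sign. The order of the means was wild type, over-expression and silenced from high to low, and no neighbours in it differed beyond their spread.

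GAI2, a DELLA gene and the other gibberellin gene recognised by name, read higher on each over-expression array than on either silenced array. GhiAffx.39939.1.A1_s_at read 10.81 and 11.10 in wild type, 10.72 and 10.74 in silenced ovules, and 11.36, 11.03 and 11.31 in over-expression. The silenced arrays were the lowest of the series and did not overlap either other group. Silenced and wild-type arrays were apart, in either direction, at 45.4% of all tested probe sets. Over-expression and silenced arrays were apart at 33.9%. The difference between over-expression and silenced ovules was 0.50 (SE 0.14, interval 0.16 to 0.84, adjusted p = 0.248 by limma), and from wild type the means differed by -0.22 in silenced ovules and 0.28 in over-expression. Without wild-type replicate 1 the differences of GAI2 from wild type were -0.37 and 0.13, and without replicate 2 they were -0.08 and 0.42. With array weights the difference between the transgenic groups passed (difference 0.54, adjusted p = 0.0315 by limma). So did 1209 of all 23977 tested probe sets in that setting, beside 5 in the main fit. GAI2 passed under no other alternative, and its difference ranged from 0.44 to 0.60 over all 15.

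**Figure D2:**
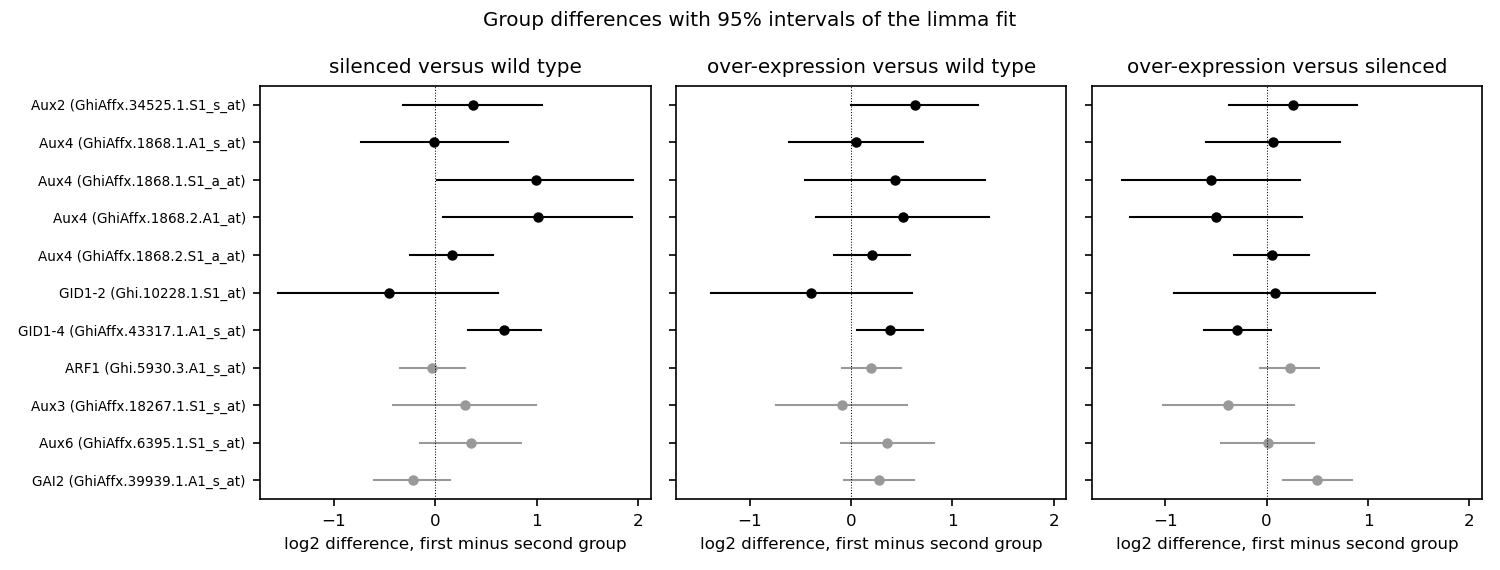
Log2 difference of group means (first minus second group named above each panel, horizontal axis) with its 95% interval from limma, for the 7 member probe sets in black and the 4 other auxin and gibberellin probe sets in grey. In the silenced against wild-type panel the intervals of GID1-4 and of Aux4 probe sets GhiAffx.1868.1.S1_a_at and GhiAffx.1868.2.A1_at lie above 0, although none passed after adjustment.

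Aux4 gave the widest differences of the 4 genes, and its 4 probe sets gave different pictures. GhiAffx.1868.1.S1_a_at read 6.67 and 6.04 in wild type, 7.22 and 7.46 in silenced ovules, and 6.44, 7.54 and 6.38 in over-expression. GhiAffx.1868.2.A1_at read 5.78 and 4.75, then 6.35 and 6.19, then 5.71, 6.29 and 5.33 in the same order. In both, the silenced arrays lay above the wild-type arrays, and over-expression replicate 2 stood with the silenced arrays while replicates 1 and 3 did not.

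Silenced ovules exceeded wild type by 0.99 at GhiAffx.1868.1.S1_a_at of Aux4 (SE 0.41, interval 0.02 to 1.95, 1.98-fold) and by 1.01 at GhiAffx.1868.2.A1_at (SE 0.39, interval 0.08 to 1.94, 2.01-fold). Limma gave unadjusted p of 0.0467 and 0.0371 and adjusted p of 0.340 and 0.314. The size depended on the wild-type array: without replicate 1 the differences were 1.30 and 1.53, and without replicate 2 they were 0.67 and 0.49. The wild-type arrays differed by 0.64 and 1.03 at these probe sets, gaps at least as wide as which occurred at 11.4% and 3.4% of all tested probe sets.

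The other Aux4 probe sets showed little difference between silenced ovules and wild type. GhiAffx.1868.1.A1_s_at read 5.21 and 5.25 in wild type, 5.17 and 5.28 in silenced ovules, and 5.10, 5.89 and 4.86 in over-expression. The silenced difference was -0.01 (SE 0.31, interval -0.73 to 0.72). This probe set was dim, with a mean below 5.64, and RMA narrows differences at low signal. Its wild-type mean was 5.23, beside 5.26 at GhiAffx.1868.2.A1_at, and its over-expression SD was 0.54. Whether low signal narrowed its silenced difference was not tested. GhiAffx.1868.2.S1_a_at read 6.15 and 6.30, then 6.33 and 6.42, then 6.28, 6.71 and 6.29, with a silenced difference of 0.16 (SE 0.17, interval -0.25 to 0.57), or 0.08 and 0.23 without wild-type replicates 1 and 2. The silenced arrays overlapped wild type in the former and lay just above it in the latter.

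The 4 Aux4 probe sets fell into pairs by their profile over the 7 arrays. After the mean of each was subtracted, GhiAffx.1868.1.S1_a_at and GhiAffx.1868.2.A1_at differed by a root mean square of 0.21 log2 units, and GhiAffx.1868.1.A1_s_at and GhiAffx.1868.2.S1_a_at by 0.18. Across the pairs the value was 0.43 to 0.49. In the same order, the probe sets deviated from their own means by 0.544 and 0.539, and by 0.289 and 0.163. The 0.18 of the second pair thus exceeded the own deviation of GhiAffx.1868.2.S1_a_at. This measure does not separate the shape of a profile from the size of its variation. The pairs do not follow the cluster numbers 1868.1 and 1868.2 in the IDs, nor the letters A and S. Probe sets ending in _a_at read alternative transcripts of a gene and those ending in _s_at can read several related transcripts, and which copy or form of Aux4 each set read was not tested.

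With its 4 probe sets averaged before the fit, Aux4 differed by 0.54 between silenced ovules and wild type (SE 0.29, adjusted p = 0.439 by limma). The average differed by 0.30 between over-expression and wild type (SE 0.27, adjusted p = 0.658) and by -0.24 between over-expression and silenced ovules (SE 0.27, adjusted p = 0.793). At the single probe sets of Aux4, over-expression differed from wild type by 0.05 to 0.51 and from silenced ovules by -0.55 to 0.06, and every one of these intervals included 0. These differences moved with single arrays. Against wild type, GhiAffx.1868.1.S1_a_at (0.43 with all arrays) gave 0.75 and 0.11 without wild-type replicates 1 and 2 and 0.05 without over-expression replicate 2. GhiAffx.1868.2.A1_at (0.51) gave 1.03 and -0.0028 without wild-type replicates 1 and 2 and 0.26 without over-expression replicate 2. GhiAffx.1868.2.S1_a_at (0.21) gave 0.13 without wild-type replicate 1 and 0.07 without over-expression replicate 2, and GhiAffx.1868.1.A1_s_at (0.05) gave -0.25 without the latter. Against silenced ovules, leaving out over-expression replicate 2 moved GhiAffx.1868.1.S1_a_at of Aux4 from -0.55 to -0.93 and GhiAffx.1868.2.A1_at from -0.50 to -0.75.

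Aux2 was set apart by a single array. GhiAffx.34525.1.S1_s_at read 6.89 and 7.84 in wild type, 7.62 and 7.84 in silenced ovules, and 7.84, 8.07 and 8.07 in over-expression. Wild-type replicate 1 lay below every other array, and wild-type replicate 2 lay within the range of the transgenic arrays. The gap of 0.95 between the wild-type arrays was reached by 4.2% of all tested probe sets.

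The over-expression mean of Aux2 lay 0.63 above wild type (SE 0.26, interval 0.0025 to 1.25, 1.55-fold, unadjusted p = 0.0493 and adjusted p = 0.477 by limma). Without wild-type replicate 2 the difference was 1.11, and without wild-type replicate 1 it was 0.15. Each of these fits leaves 1 wild-type array. Over all 15 alternatives the difference ranged from 0.15 to 1.11. The silenced mean lay 0.37 above wild type (SE 0.29, interval -0.32 to 1.05, adjusted p = 0.577), or 0.85 and -0.11 without wild-type replicates 2 and 1. Between the transgenic groups Aux2 differed by 0.26 (SE 0.26, interval -0.37 to 0.89, adjusted p = 0.767). From low to high the order of the means was wild type, silenced and over-expression, and no neighbours in this order passed the test.

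**Figure D3:**
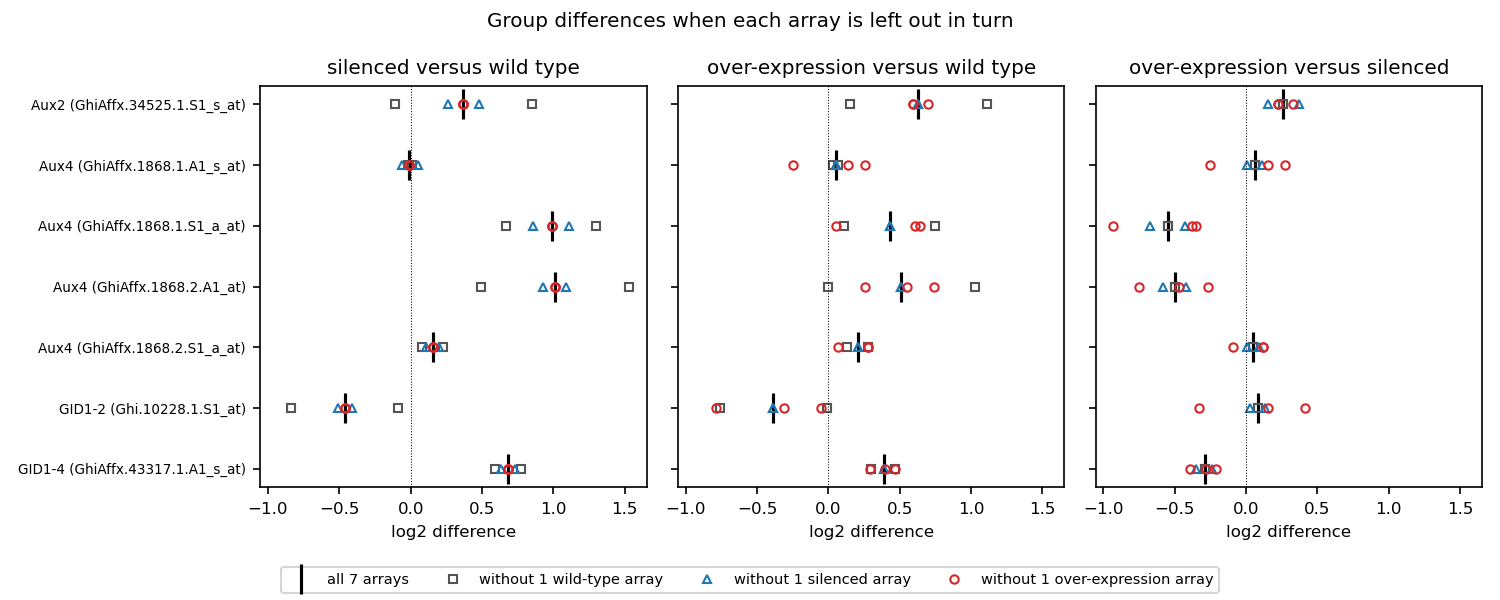
Log2 difference of each member probe set in each comparison with all 7 arrays (black bar) and with 1 array left out (open marks, by the group of the array left out). GID1-4 and Aux4 probe set GhiAffx.1868.1.S1_a_at each stay on 1 side of 0 within every comparison. Aux2 in silenced against wild type moves between -0.11 and 0.85 with the wild-type array left out.

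Counted together, 5 of the 7 member probe sets did not overlap between silenced and wild-type ovules, 4 of them higher and GID1-2 lower. The same held for 45.4% of all tested probe sets, so the count has a wide background, and 4 of the 7 share 1 gene. Between over-expression and wild type 1 of 7 was apart, against 24.3% of all, and between over-expression and silenced ovules 1 of 7, against 33.9%. In each of these GID1-4 was the probe set apart. The median difference of the 7 was 0.37 in silenced and 0.39 in over-expression ovules against wild type, where the median of all probe sets was 0.02 in both, and 0.05 against 0.01 between the transgenic groups. Above wild type lay 5 of 7 members in silenced and 6 of 7 in over-expression ovules, beside 52.3% and 53.5% of all probe sets.

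Over-expression replicate 2 read highest of its group at all 7 member probe sets, although it did so at 31.0% of all tested probe sets. It was the highest of the 7 arrays at 5 of them, beside 14.1% of all. Because 4 of the 7 read Aux4, these counts are not of independent genes. Among the other list probe sets the array was highest of its group at Aux3 and Aux6, just below replicate 1 at ARF1 and lowest at GAI2. The over-expression SD was 0.13 to 0.75 over the members with a median of 0.482, while the median over all tested probe sets was 0.140. In the silenced group the members' median SD was 0.075, close to the 0.082 of all probe sets, and in wild type it was 0.450 beside 0.165.

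The remaining auxin genes recognised by name were Aux3, Aux6 and ARF1. Others could not be recognised among the 23234 tested probe sets with no gene listed. The name ARF1 does not say whether an auxin response factor or another protein is meant. A lipid transfer protein gene that also carries the synonym GH3 matched the auxin list by name and was left out of it, with probe set differences of -0.15 to 0.10. Of the resulting 8 auxin probe sets of 5 genes, 0 were called in any comparison. Their medians were 0.32 in silenced and 0.28 in over-expression ovules against wild type, and 0.03 between the transgenic groups. The 3 gibberellin probe sets, also with 0 calls, had medians of -0.22, 0.28 and 0.08.

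Aux6, another Aux/IAA gene, read 5.63 and 5.51 in wild type, 5.87 and 5.97 in silenced ovules, and 5.60, 6.27 and 5.93 in over-expression. Its differences from wild type were 0.35 (SE 0.21, adjusted p = 0.482) and 0.36 (SE 0.19, adjusted p = 0.521 by limma). Aux3 read 11.59 and 11.46, then 11.83 and 11.80, then 11.33, 12.00 and 10.98, so that its silenced arrays lay above wild type and its over-expression arrays on both sides. Its differences from wild type were 0.29 (SE 0.30) and -0.09 (SE 0.27), with over-expression replicate 2 again the highest array. ARF1 read 12.23 to 12.61 over all arrays and differed from wild type by -0.03 (SE 0.13) and 0.20 (SE 0.12).

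**Figure D4:**
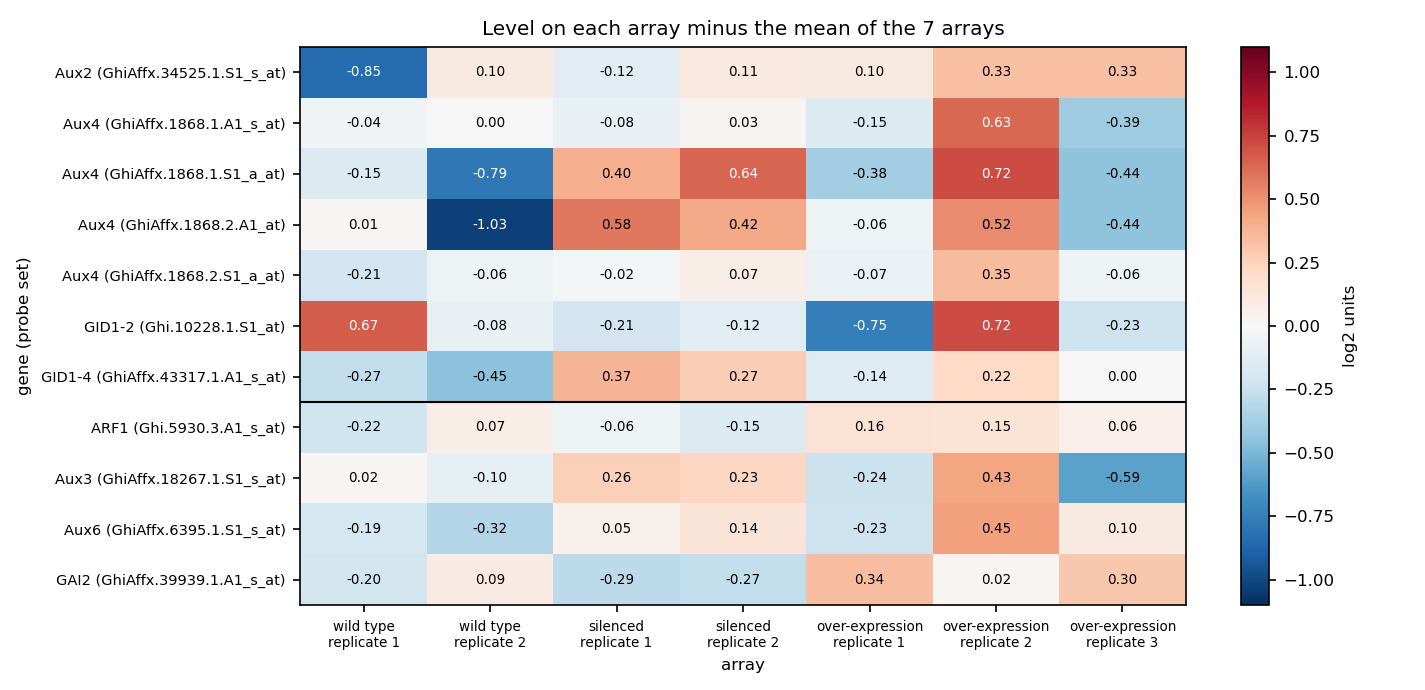
Level of each auxin and gibberellin probe set on each array (columns, by group) minus its own mean over the 7 arrays, in log2 units by colour and number. Rows above the line are Aux2, Aux4, GID1-2 and GID1-4, and rows below it are the other list genes. Over-expression replicate 2 is above the row mean in all 11 rows, and wild-type replicate 1 is lowest for Aux2 at -0.85.

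Among 323 other probe sets of named genes, those nearest to each member were found by the root mean square difference of the mean-centred profiles over the 7 arrays. For GID1-4 they were the peroxidase gene pod5 (0.137 log2 units), RAV1 (0.153) and LEGB (0.154), where GID1-4 itself deviated from its mean by 0.281. For GID1-2 they were the gene listed as CBF20 and DREB1C (0.124), MFP (0.186) and the MAP kinase gene MPK3 (0.195), against its own 0.487. For Aux2 they were the gene listed as NACL2 and nst3 (0.185), a peroxidase gene (0.193) and the NAC factor NAC10 (0.204), against 0.376. The peroxidase gene pod5 was also next nearest to Aux4 at GhiAffx.1868.1.S1_a_at (0.244), after the other Aux4 probe set of that pair (0.211) and before NHX1 (0.273). At GhiAffx.1868.2.A1_at of Aux4 it followed that pair's other probe set and the aquaporin gene NIP6.1 (0.265), with 0.314. GhiAffx.1868.1.A1_s_at was nearest to MPK3 (0.132), the fatty acid desaturase gene 3FAD (0.136) and SAMDC (0.157), against its own 0.289. GhiAffx.1868.2.S1_a_at was nearest to SusA1 (0.070), CPR1 (0.121) and EF1A1 (0.122), against its own 0.163. These likenesses describe 7 arrays that share groups and array effects, and no test was made of them.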

How the data were processed

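Per the labels, 7 samples of whole ovules were hybridised to 1 array each, in 3 genotype groups. The authors deposited log2 intensities between 2.27 and 14.55 for 24132 probe sets. The submitters' processing notes name RMA, limma and R 2.7.1 without roles; what else was done is not given in the sources used here. Under RMA, arrays are equalised by quantiles, which removes a shift common to all genes, and differences are narrowed at low signal. Control probe sets (103 AFFX and 52 reporter) were left out. Of the 23977 tested, 697 had 1 gene in the platform annotation, 46 several and 23234 none listed. The 697 were all found in RefSeq's table of assembly Gossypium_hirsutum_v2.1, where 324 had a name beyond a locus number. Probe sets that may read several related transcripts (_s_at or _x_at) made up 45.2% of those tested. No coordinates or sequences are printed, and the promoter motif search that was planned was not run.

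Group means were compared by limma 3.58.1 under R 4.3.3 (lmFit with 1 mean per group on all 7 arrays, eBayes defaults, 4 residual and 3.01 prior degrees of freedom), two-sided, with Benjamini-Hochberg adjustment within each comparison. The script was tested on simulated data with the same spread in every group, unlike these data, and only the size of the recovered differences was checked. The labels do not say whether replicates came from separate plants, and p-values measure the spread between these samples. The named genes are all members, the auxin and gibberellin list genes, and the 3 nearest probe sets of each member. The members, lists and tests were chosen with earlier results of these data known. Alternatives were the replicate block, fitting only the groups in question, an intensity trend, a robust prior, array weights, median centring, cyclic loess, probe sets with a mean above 5.64, a threshold of 0.01, the mean of the Aux4 sets, and leaving out each array.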

Additional observations from a re-analysis of the deposited data

Results flagged for a closer look

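A reporter control outside the comparisons, RPTR-Ghi-A06498-1_at, stood out in the silenced group. Its lowest silenced array read 5.41 log2 units above its highest wild-type array, with 9.99 and 10.15 in silenced ovules and 4.08 to 4.66 on the other 5 arrays. No member group was large enough for a test of single outlying arrays.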

How the results depend on the processing

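There were 492 recomputed differences of the 7 member and 4 further list probe sets. Of these, 468 kept their sign and side of the threshold and 22 turned sign. The other 2 passed: GAI2 with array weights, and Aux2 without wild-type replicate 2, which leaves 1 wild-type array. Many of the 492 could not turn sign. The difference is fixed under the intensity trend, robust prior, brighter probe sets and fit of only the groups in question. It is fixed too when an array of an uncompared group is left out. Between silenced ovules and wild type, the replicate block and array weights fix it as well. GID1-4, GAI2 and GhiAffx.1868.1.S1_a_at of Aux4 turned sign under no alternative. Counts of called probe sets moved more. Silenced against wild type gave 0, but 7 with a robust prior and 0 to 73 when 1 array was left out (73 without wild-type replicate 1, 35 without replicate 2). Over-expression against wild type gave 1, but 0 with the replicate block, the fit of only these groups, array weights, cyclic loess or a threshold of 0.01, and 0 to 475 when 1 array was left out (475 without wild-type replicate 2). Over-expression against silenced gave 5, but 0 with the replicate block or a threshold of 0.01, 238 in the fit of only these groups, 1209 with array weights, 9 with median centring, and 0 to 238 when 1 array was left out (238 without either wild-type array, 37 without over-expression replicate 2, 0 without either silenced array or over-expression replicates 1 or 3). For silenced against wild type, ARF1 became 0.04 with median centring, 0.11 without wild-type replicate 2 and 0.01 without silenced replicate 2 (range -0.17 to 0.11 when 1 array was left out). GhiAffx.1868.1.A1_s_at of Aux4 became 0.06 with median centring, 0.01 without wild-type replicate 2 and 0.05 without silenced replicate 1, and Aux2 ranged from -0.11 (without wild-type replicate 1) to 0.85. For over-expression against wild type, Aux3 became 0.14 with the replicate block and ranged from -0.37 to 0.14 (without over-expression replicate 3). GhiAffx.1868.1.A1_s_at became -0.15 with array weights and ranged from -0.25 (without over-expression replicate 2) to 0.26, and GhiAffx.1868.2.A1_at from -0.0028 (without wild-type replicate 2) to 1.03. For over-expression against silenced, array weights gave -0.06 for GID1-2, -0.14 for GhiAffx.1868.1.A1_s_at, -0.02 for GhiAffx.1868.2.S1_a_at and -0.03 for Aux6. Leaving out over-expression replicate 2 gave -0.33, -0.25, -0.09 and -0.16 for the same probe sets, whose highest values with 1 array left out were 0.41, 0.27, 0.12 and 0.18. Aux6 was also -0.02 with cyclic loess and -0.03 without silenced replicate 1. The causes were not tested, except that leaving out an array changes the samples. For over-expression against silenced, leaving out either wild-type array repeats the fit of only these groups, because a lone array adds nothing to the spread. The replicate block fits over-expression replicate 3 exactly, so its differences repeat those without that array. Same-numbered arrays share only a number: their deviations from the group means correlated across probe sets by 0.10 between silenced and wild type, 0.15 and 0.05 between over-expression and silenced, and -0.31 and -0.22 between over-expression and wild type. The replicate block changed no member's call. The dim probe set GhiAffx.1868.1.A1_s_at was not in the fit of brighter probe sets.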
